A study of Homo sapiens with 9 samples.

Results

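KHM-5M is a human thyroid cancer cell line, and the 3 samples described here are those of the line kept in DMSO, the vehicle, for 24 h. They were taken by their treatment label, 3 of the 9 RNA-seq samples of the series, and the other groups, 3 samples each with the small molecule YK-4-279 at 0.3 or 1 uM for the same time, were not used. By the study's account, YK-4-279 was first reported to target the contact of the oncogenic EWS-FLI1 protein with the helicases DDX5 and DHX9. Later work reported effects in cancers with other ETS transcription factors. The labels give no genetic change or sort for any group, and they do not say whether the 3 samples came from separate cultures, so an SD below measures the spread between these samples, which may be technical. The study's methods give another number of replicates per condition than the labels do, and the labels were followed. No contrast was made and no test was run: the question was which genes of a thyroid cancer line are expressed, and at what level, without the drug.

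A follicular cell of the thyroid is made by a set of transcription factors, PAX8, NKX2-1, FOXE1 and HHEX, that act together. It takes up iodide through the sodium iodide symporter SLC5A5, stores it bound to thyroglobulin (TG), and does so under the control of thyrotropin, which binds the receptor TSHR. Aggressive thyroid cancers are known for losing this program, for gaining traits of mesenchymal cells and for secreting inflammatory factors.

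Levels are FPKM as deposited, fragments per kilobase of gene scaled to the depth of the library. The length used is that deposited for each gene, whatever transcripts the cells made, so levels of different genes compare only roughly. A gene is said to be expressed where its FPKM was at least 1 in 3 of 3 samples, at or under the floor where it had at most 3 counts in each of the 3, and at trace between these. TPM is a scale on which each sample has the same sum. Here 1 FPKM was 3.79 to 3.86 TPM, so a gene at trace need not be absent. The values of a gene are given in the order of replicates 1, 2 and 3, and a number after ± is the SD over these samples (n = 3 throughout). The 3 libraries held 17077678, 17716135 and 16903251 counts, so that 1 FPKM stood for 17.1 to 18.1 counts per kilobase of gene, and the floor of 3 counts lay at 0.169 to 0.177 CPM (counts set against the total of the library). Of 19951 protein-coding genes, 10402 (52.1%) were expressed, 4021 (20.2%) were at trace and 5528 (27.7%) were at or under the floor. The counts of list members expressed below are to be read against this 52.1%. The lists were drawn up with earlier results of these data known. The distance of a list from 52.1% can reflect that choice, and it was not tested. Among the expressed genes the median level was 7.67 FPKM, and 300 genes at 100 FPKM or more in every sample took 27.9% of all counts. Where another gene of the same strand covers most of a gene in the annotation, reads that fit both may be counted for neither, and this holds, beside the genes marked below, for EFNA4, CLCF1, L1CAM, ERF, NR2F6, CCND2, IFNE, MAGEA10 and TERC. Olfactory receptors, a family of the nose, gave a gauge of stray counts: of 386, 373 were at or under the floor, 12 were at trace and 1, OR2W3, was expressed, at 4.51 FPKM.

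The 3 samples were close to each other, yet they differed by more than counting error: chi-square per degree of freedom between pairs was 3.20 for replicates 1 and 3, 6.86 for 2 and 3, and 10.7 for 1 and 2. The common biological coefficient of variation was 8.16%, and it was 4.84% without replicate 2. Over 9077 expressed protein-coding genes with a mean of at least 200 counts the median coefficient of variation was 6.23%, and 153 (1.69%) exceeded 20%. Base composition moved with this spread. In the 1815 of these genes richest in G and C, replicate 2 lay at a median log2 of -0.12 against the mean of the 3 samples and replicate 1 at 0.10, whereas in the 1815 poorest they lay at 0.07 and -0.08. Replicate 3 stayed within 0.01 of the mean in each of 5 classes of GC content. The part of base composition in the levels of single genes below was not tested.

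The most abundant mRNAs outside the mitochondrial genome belonged to the cytoskeleton, iron storage, translation and glycolysis. TMSB10, a thymosin that binds actin monomers, led with 2941, 3228 and 2996 FPKM (3055 ± 152). FTL, the light chain of ferritin, reached 2882, 2663 and 2820.4 FPKM (2788 ± 113), and EEF1A1, which brings aminoacyl-tRNA to the ribosome, 1845, 1927 and 1999 FPKM (1923 ± 77.2). Replicate 2 was the highest for TMSB10 and the lowest for FTL. The next 7 were the ribosomal protein gene RPL8 (1537 ± 17.2 FPKM), the glycolytic enzyme GAPDH (1365 ± 44.9 FPKM), the cytoskeletal actin ACTG1 (1322 ± 158 FPKM), the galectin LGALS1 (1167 ± 38.5 FPKM), RPL13A (1161 ± 17.04 FPKM), the chaperone HSP90AB1 (1079 ± 16.6 FPKM) and RPS2 (997 ± 6.35 FPKM). Several of these, such as EEF1A1, GAPDH and the ribosomal protein genes, have many processed pseudogenes with near-identical sequence, and reads that match several copies can be split or dropped in counting. 15 of 15 housekeeping genes were expressed, down from EEF1A1, and the median of the list was 121 FPKM.

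Part of the thyroid factor set was present. PAX8, a paired-box factor that drives the thyroid genes (chr2:113215997-113278950 on GRCh38, minus strand), was expressed at 23.7, 22.5 and 22.2 FPKM (22.8 ± 0.774). HHEX, a homeobox factor of the early thyroid bud, was expressed at 6.79, 5.72 and 6.15 FPKM (6.22 ± 0.539). Both varied little between samples. By contrast, NKX2-1 had 2, 10 and 2 counts and FOXE1 7, 24 and 8 counts, so that these factors were at trace, with replicate 2 the highest for both. Another gene of the same strand covers most of NKX2-1 in the annotation, so its counts can be too low.

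Few genes of thyroid hormone synthesis and handling were expressed, 3 at the limit of 1 FPKM, 1 at 5 FPKM and 6 at 1 CPM. Of the 18 listed, 8 were at or under the floor, among them TG, SLC5A5, TSHR, the oxidase DUOX2 and its partner DUOXA2, the deiodinase of iodotyrosines IYD, and the secreted peptide TFF3. TSHR, DUOX2, IYD and TFF3 had 0 counts in every sample, TG had 2, 0 and 1 counts, and SLC5A5 had 0, 0 and 1 counts. Another 7 were at trace: the nuclear receptor THRB (122, 131 and 103 counts), the anion exchangers SLC26A4 (23, 24 and 21 counts) and SLC26A7 (7, 4 and 5 counts), DUOX1 (22, 24 and 34 counts), its partner DUOXA1 (2, 0 and 4 counts), and the deiodinases DIO1 (4, 4 and 9 counts) and DIO2 (5, 8 and 4 counts). The other 3 were expressed, among them THRA, the other thyroid hormone receptor, at 7.76, 7.75 and 7.26 FPKM (7.59 ± 0.285), and GLIS3, a zinc finger factor of thyroid development, at 2.65, 2.42 and 2.68 FPKM (2.58 ± 0.142). Of the defining markers of the labelled thyroid origin given here, PAX8 and HHEX were therefore expressed, FOXE1 was at trace, NKX2-1 was at trace with counts that can be too low, and TG, TSHR and SLC5A5 were not detectable above the floor at this depth.

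**Figure D1:**
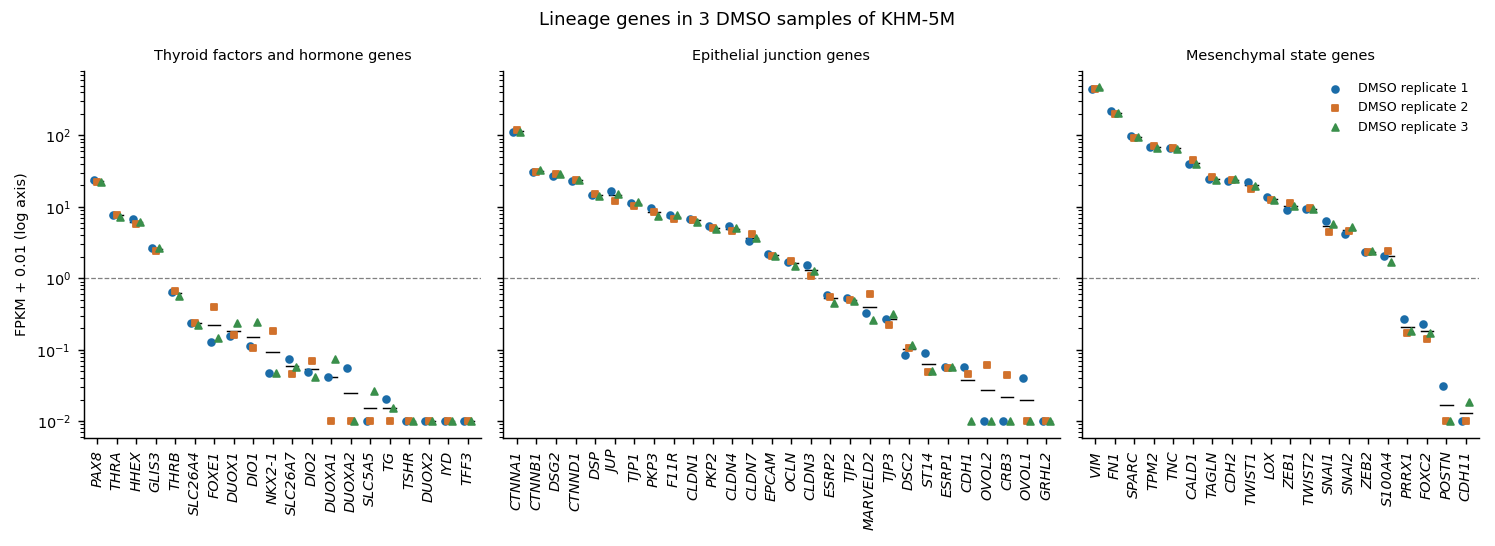
FPKM + 0.01 on a log axis for genes (x axis) of the thyroid, epithelial junction and mesenchymal lists, with 1 point per DMSO sample and a bar at the mean. The dashed line marks 1 FPKM. PAX8 and HHEX stand above it and NKX2-1 and FOXE1 below, CDH1 lies near the bottom of the junction genes, and 16 of 20 mesenchymal genes stand above the line.

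Markers of other cell types that a thyroid sample could hold were low. None of the 10 C cell and neuroendocrine markers was expressed: CHGA and INSM1 had 0 counts, RET had 0, 0 and 1 counts, and the calcitonin gene CALCA had 2, 8 and 0 counts. CEACAM5 also had 0 counts, but a longer same-strand gene in the annotation covers it. The blood cell list had 0 of 8 expressed, with PTPRC (CD45) at 0 counts. The endothelial list had 0 of 6, the squamous list 0 of 8, with KRT5, KRT14 and KRT13 at 0 counts, the melanocyte list 0 of 6, the muscle list 0 of 6, the liver list 0 of 7 and the neural list 0 of 6. Summed over the blood list, the level was between 0.281 and 0.773 FPKM in the 3 samples, and over the endothelial list between 0.635 and 0.730 FPKM. CD68 of the blood list, SOX2 of the squamous list and NEUROD1 of the neural list are also covered by a longer same-strand gene.

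The fibroblast list was the exception, with 4 of 10 expressed. COL1A1, which encodes the alpha 1 chain of type I collagen (chr17:50183289-50201632, minus strand), stood at 56.4, 39.4 and 47.7 FPKM (47.8 ± 8.53), with replicate 2 the lowest. COL1A2, which encodes the alpha 2 chain of the same trimer, had 1, 0 and 7 counts, and COL3A1 had 1, 1 and 1 counts. The others expressed were the surface glycoprotein THY1 (7.95 ± 0.216 FPKM), the PDGF receptor PDGFRB (6.89 ± 0.483 FPKM) and the proteoglycan LUM (3.12 ± 0.342 FPKM), while DCN (4, 3 and 3 counts), PDGFRA (11, 3 and 11 counts), FAP (6, 19 and 19 counts) and smooth muscle actin ACTA2 (13, 4 and 2 counts) were at trace. PDGFRA is covered by another gene of its strand, so its counts can be too low. The part of fibroblast RNA in these levels was not tested.

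KHM-5M expressed the keratins of simple epithelium. Keratins pair as a type I and a type II chain in 1 filament, and KRT8 and KRT18 are the pair of simple epithelia. KRT8 was at 192, 191 and 189 FPKM (191 ± 1.11) and KRT18 at 129, 134 and 135 FPKM (132 ± 3.18). KRT7 followed at 20.2 ± 1.48 FPKM, and KRT81, KRT80 and KRT10 at 16.6 ± 1.42 FPKM, 15.6 ± 1.095 FPKM and 9.06 ± 0.271 FPKM. KRT81 is nearly identical to KRT86, so its level is uncertain. KRT19 was low, at 2.398, 1.56 and 1.83 FPKM (1.93 ± 0.428). Of the 26 keratins, 17 were at or under the floor, among them KRT1, KRT2, KRT3, KRT4, KRT5 and KRT6A, each at 0 counts.

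Junction genes ranged widely in level. Of the catenins, CTNNA1, the alpha catenin that links cadherins to actin, stood at 110.1, 118 and 113 FPKM (114 ± 4.18), CTNNB1 at 31.7 ± 1.06 FPKM and CTNND1, which a readthrough gene covers, at 23.6 ± 0.473 FPKM. Of the desmosome genes, the cadherin DSG2 was at 28.1 ± 1.25 FPKM, DSP and JUP were at 14.7 ± 0.501 FPKM and 14.6 ± 2.38 FPKM, the plakophilins PKP3 and PKP2 at 8.47 ± 1.11 FPKM and 5.11 ± 0.231 FPKM, and the other desmosomal cadherin listed, DSC2, was at trace with 16, 22 and 23 counts. The classical epithelial cadherin was near 0: CDH1 (chr16:68737225-68835548, plus strand) had 5, 4 and 0 counts. EPCAM was expressed at 2.15, 2.06 and 2.07 FPKM (2.09 ± 0.0528). At or under the floor were GRHL2, OVOL1 and OVOL2, transcription factors that maintain the epithelial state, and CRB3, a polarity protein, with 0 counts, 2, 0 and 0 counts, 0, 2 and 0 counts and 0, 1 and 0 counts respectively. In all, 16 of 28 junction genes were expressed, 8 were at trace and 4 were at or under the floor, against 52.1% expressed among all protein-coding genes.

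The mesenchymal state genes were mostly on, 16 of 20 (80.0%) against 52.1% of all protein-coding genes, with a median of 11.6 FPKM over the list. The list was picked by hand with earlier results known, and the distance between these shares was not tested. VIM, the intermediate filament of mesenchymal cells, stood at 441, 449 and 472 FPKM (454 ± 16.3) and was the most abundant of them. FN1, the fibronectin of the matrix, followed at 222, 202 and 205 FPKM (209.5 ± 10.98). SPARC, a matricellular protein, was at 95.8 ± 2.72 FPKM, the tropomyosin TPM2 at 69.01 ± 2.97 FPKM, the matrix glycoprotein TNC at 65.9 ± 0.965 FPKM and the actin-binding CALD1 at 41.8 ± 2.64 FPKM. Of the cadherins, CDH2 (N-cadherin) was at 22.8, 23.9 and 24.5 FPKM (23.7 ± 0.869), whereas CDH11 and the matrix protein POSTN were at or under the floor. Transcription factors that repress epithelial genes in other systems were expressed as well: TWIST1 at 20.01 ± 2.39 FPKM, ZEB1 at 10.2 ± 1.12 FPKM, TWIST2 at 9.43 ± 0.171 FPKM, SNAI1 at 5.46 ± 0.982 FPKM, SNAI2 at 4.66 ± 0.475 FPKM and ZEB2 at 2.35 ± 0.0537 FPKM. PRRX1 and FOXC2, also transcription factors of the list, were at trace, with neither above 0.197 FPKM on average.

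The letters CACCTG, with their reverse complement CAGGTG, are an E-box that ZEB and SNAI proteins are known to bind. They were searched in RefSeq promoters of GRCh38.p14, 250 bases before to 50 bases after the start, for the 14895 of 19951 protein-coding genes (74.7%) that had an entry. At least 1 E-box was held by 17.0% of the promoters of expressed genes, 23.7% of those at trace and 23.6% of those at or under the floor, against 19.9% of all. CRB3 held 5, which 5 of the 14895 promoters (0.0336%) reached or passed. It was singled out after its count was seen, so this share does not describe the junction genes as a set. Whether these letters bear on the level of CRB3 was not tested. A match is only a match of letters and does not show binding.

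Of 58 receptor tyrosine kinases, the surface receptors that relay growth signals, 22 were expressed, 17 were at trace and 19 were at or under the floor. AXL, the receptor for GAS6 and a marker of the mesenchymal state in carcinomas (chr19:41219203-41261766, plus strand), stood far above the others at 239, 199 and 229 FPKM (222 ± 20.7), with replicate 2 the lowest. EPHA2 was next at 30.8, 26.5 and 30.2 FPKM (29.2 ± 2.35), then MET, the hepatocyte growth factor receptor, at 24.9, 27.2 and 27.3 FPKM (26.5 ± 1.33), the pseudokinase PTK7 (23.6 ± 2.55 FPKM), TIE1 (18.6 ± 1.75 FPKM) and EGFR (15.3 ± 0.499 FPKM). TIE1 is known from endothelium. Of the 6 endothelial markers, VWF (76, 59 and 58 counts), KDR (32, 40 and 27 counts) and PECAM1 (0, 0 and 6 counts) were at trace, and TEK (0, 1 and 1 counts), CDH5 (1, 1 and 1 counts) and CLDN5 (1, 0 and 0 counts) were at or under the floor. The part of endothelial RNA in the level of TIE1 was not tested. At or under the floor were ERBB4, FGFR2, INSRR, FLT3, FLT1, FLT4 and 13 others, among them RET, ALK and NTRK3, receptors rearranged in some thyroid cancers, with 0, 0 and 1 counts, 2, 2 and 1 counts and 0 counts.

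**Figure D2:**
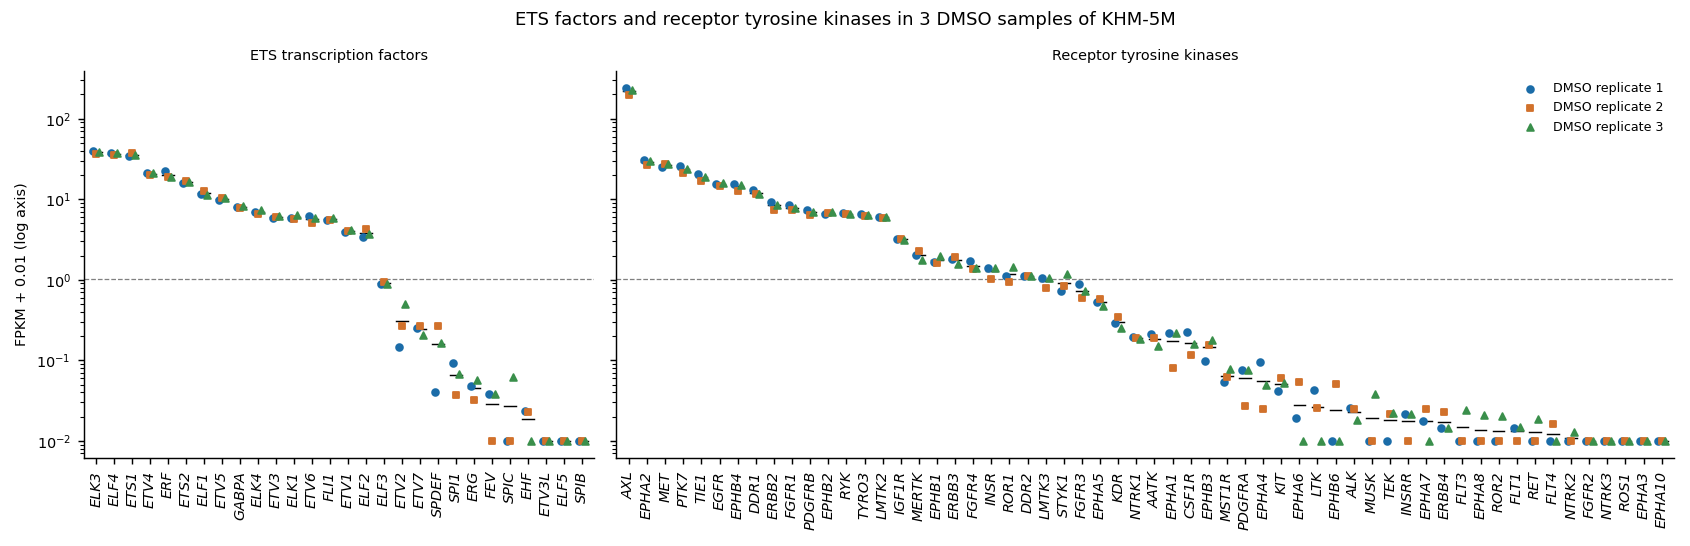
FPKM + 0.01 on a log axis for 28 ETS transcription factors and 58 receptor tyrosine kinases (x axis), with 1 point per DMSO sample, a bar at the mean and a dashed line at 1 FPKM. AXL, at 222 FPKM on average, stands apart from the other kinases, the next of which is EPHA2 at 29.2 FPKM, while the ETS factors fall off gradually from ELK3 at 38.3 FPKM.

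Of 53 ligands of these receptors, 24 were expressed. VEGFB, a ligand of FLT1, led with 57.9, 35.7 and 56.3 FPKM (49.98 ± 12.4), replicate 2 being much lower than the others, and GAS6 followed with 37.1, 31.4 and 35.9 FPKM (34.8 ± 2.998). PDGFC, CSF1, EFNA4 and VEGFC were at 13.5 ± 0.474 FPKM, 12.9 ± 0.851 FPKM, 10.5 ± 0.157 FPKM and 8.58 ± 0.139 FPKM. At or under the floor were EPGN, NRG3, HGF, FGF7, FGF9 and FGF10, and 6 others. HGF, the ligand of MET, had 0 counts in every sample. IGF2, another of the 12, is covered by a readthrough gene.

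The promoters of AXL and GAS6 are shown because they are the receptor and the ligand with the highest sum of levels among the pairs below. Each sequence is the 250 bases before the RefSeq start, 5′ to 3′ on the gene's strand, with the E-box letters in capitals. That of AXL lies at chr19:41218973-41219222 (plus strand) and holds 4 CG dinucleotides, and that of GAS6 lies at chr13:113864077-113864326 (minus strand) and holds 31. Neither window holds the ETS letters CCGGAA.
AXL: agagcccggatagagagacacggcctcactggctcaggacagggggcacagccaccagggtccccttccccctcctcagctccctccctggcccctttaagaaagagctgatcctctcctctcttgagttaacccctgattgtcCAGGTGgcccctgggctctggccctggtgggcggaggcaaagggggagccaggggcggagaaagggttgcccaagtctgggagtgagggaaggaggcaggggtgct
GAS6: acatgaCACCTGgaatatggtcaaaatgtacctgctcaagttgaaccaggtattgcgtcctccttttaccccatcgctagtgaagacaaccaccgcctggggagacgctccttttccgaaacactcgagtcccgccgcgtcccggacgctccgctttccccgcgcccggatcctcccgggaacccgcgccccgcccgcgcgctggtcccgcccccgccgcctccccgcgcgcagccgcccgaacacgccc

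Over 83 ligand and receptor pairs set down from textbook knowledge, both genes were expressed in 20, the ligand alone in 24, the receptor alone in 19 and neither in 20. Among all protein-coding genes 52.1% were expressed. Whether 20 exceeds the number that unrelated genes would give was not tested. GAS6 was paired with AXL (222 ± 20.7 FPKM) and with TYRO3 (6.31 ± 0.230 FPKM), and PROS1 (4.76 ± 0.160 FPKM) with MERTK (2.0005 ± 0.241 FPKM), so that each of the 3 receptors of this family had an expressed ligand. The growth factor pairs were HBEGF (5.51 ± 0.336 FPKM) with EGFR, FGF1 (6.23 ± 0.934 FPKM) and FGF2 (3.898 ± 0.132 FPKM) with FGFR1 (7.88 ± 0.586 FPKM), and PDGFB (2.05 ± 0.128 FPKM) with PDGFRB. The contact pairs were EFNA1 (7.302 ± 0.734 FPKM) with EPHA2, EFNB2 (2.49 ± 0.441 FPKM) with EPHB4 (14.4 ± 1.61 FPKM), JAG1 (2.29 ± 0.219 FPKM) with NOTCH1 (6.25 ± 1.001 FPKM), and COL1A1 with the collagen receptor DDR1 (12.1 ± 0.880 FPKM). Cytokine pairs were LIF (7.93 ± 1.04 FPKM) with LIFR (4.64 ± 0.292 FPKM), IL1A (3.28 ± 0.345 FPKM) and IL1B (2.47 ± 0.206 FPKM) with IL1R1 (1.15 ± 0.104 FPKM), and TNF (6.57 ± 0.564 FPKM) with TNFRSF1A (37.8 ± 2.24 FPKM). TGFB1 (37.1 ± 6.04 FPKM) and TGFB2 (21.96 ± 0.594 FPKM) were paired with TGFBR2 (24.97 ± 1.13 FPKM), and INHBA (10.5 ± 0.754 FPKM) with ACVR2A (1.27 ± 0.0851 FPKM). Last came SPP1 (1.45 ± 0.237 FPKM) with CD44 (55.9 ± 2.08 FPKM) and the protease PLAU (59.9 ± 2.53 FPKM) with its receptor PLAUR (30.3 ± 0.675 FPKM). Transcripts in a culture do not show that the proteins met.

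**Figure D3:**
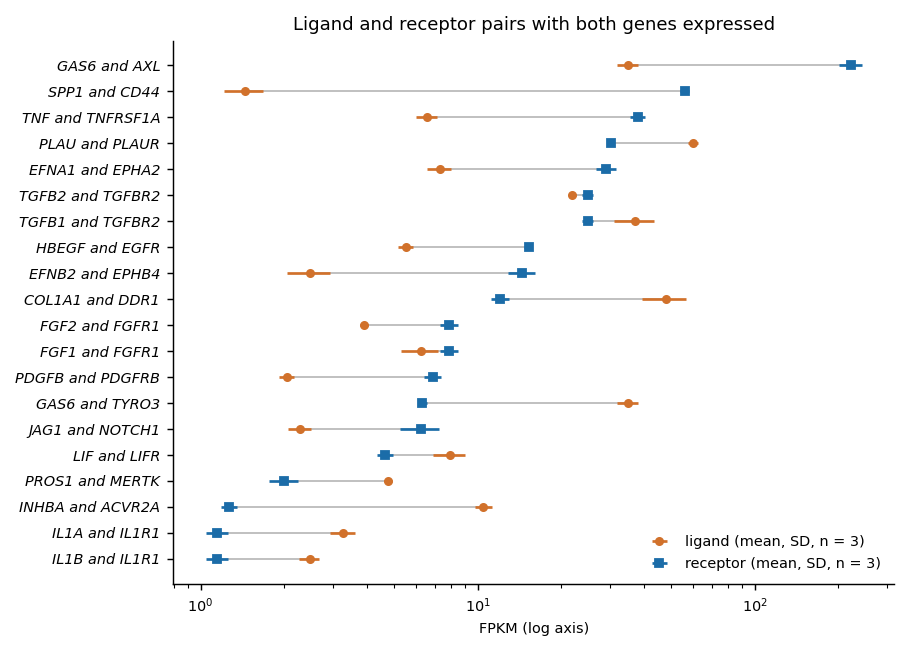
Mean FPKM (log axis) of the ligand and of the receptor in each of the 20 pairs with both genes expressed, with SD over the 3 DMSO samples. Receptors such as AXL and CD44 lie above their ligands, and ligands such as PLAU, COL1A1 and INHBA lie above their receptors.

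The cascade from RAS to ERK was nearly complete, with 20 of 21 genes expressed and KSR2, a scaffold, at or under the floor. The adaptor SHC1 was at 70.97 ± 3.12 FPKM, the phosphatase PTPN11 at 50.8 ± 1.67 FPKM, the kinase MAP2K2 at 47.3 ± 6.69 FPKM, the adaptor GRB2 at 35.6 ± 0.417 FPKM, the GTPase HRAS at 27.1 ± 3.63 FPKM and the GTPase-activating RASA1 at 24.9 ± 1.38 FPKM. Of 20 genes known as outputs of ERK signalling, 16 were expressed. FOSL1, an AP-1 subunit, stood at 212, 177 and 189.9 FPKM (193 ± 17.8) and CCND1, the cyclin of early G1, at 62.7, 62.3 and 60.7 FPKM (61.9 ± 1.07). IER3, MYC and PHLDA1 were at 60.3 ± 6.899 FPKM, 39.6 ± 2.71 FPKM and 34.96 ± 1.42 FPKM. The early response factor EGR1 was at trace with 2, 14 and 7 counts, as were DUSP4, SPRY1 and EPHA4 of the same list, each at its own low level.

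Of 24 PI3K and mTOR genes, 19 were expressed, led by EIF4EBP1, a translational repressor that mTOR phosphorylates (79.4 ± 4.37 FPKM), the GTPase RHEB (47.5 ± 1.28 FPKM) and the kinase AKT1 (24.8 ± 3.52 FPKM). PIK3R2 had 0, 3 and 2 counts, but a longer same-strand gene covers it, and INPP5D, a phosphatase of blood cells, had 1, 1 and 3 counts. In the Hippo list 18 of 18 were expressed, with a median of 16.95 FPKM: the YAP targets CYR61 and CTGF, both secreted matrix-associated proteins, stood at 538, 514 and 547 FPKM (533 ± 16.95) and 118, 107 and 123 FPKM (116 ± 8.29), and AMOTL2, TEAD1 and LATS2 at 41.4 ± 1.19 FPKM, 28.3 ± 1.35 FPKM and 27.4 ± 0.355 FPKM. In the TGF-beta family 24 of 35 were expressed, with SMAD3 at 31.4 ± 1.197 FPKM, and THBS1, which activates latent TGF-beta, at 21.3 ± 1.78 FPKM. INHA, BMP6, BMP7 and LEFTY1 were at or under the floor, LEFTY1 being covered by a longer same-strand gene.

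Wnt, Notch and Hedgehog genes were present in part. For Wnt, 18 of 43 were expressed, led by the secreted DKK3 (43.9 ± 1.59 FPKM), the receptor FZD2 (30.3 ± 4.45 FPKM), the co-receptor LRP5 (21.3 ± 2.57 FPKM) and FZD6 (17.7 ± 0.811 FPKM), while WNT1, WNT2, WNT3A, WNT7A, WNT8A and WNT9B were at or under the floor with 5 others. For Notch, 11 of 19 were expressed, with the receptor NOTCH2 at 27.2 ± 0.455 FPKM, the DNA-binding RBPJ at 15.9 ± 1.38 FPKM and the target HES4 at 14.1 ± 3.1 FPKM, and HEY2 was at or under the floor. The targets HES1 and HEYL and the receptors NOTCH3 and NOTCH4 were at trace. For Hedgehog, 5 of 11 were expressed, the inhibitor SUFU at 5.61 ± 0.593 FPKM, the factors GLI3 and GLI2 at 5.42 ± 0.600 FPKM and 4.09 ± 0.784 FPKM, the transducer SMO at 4.15 ± 0.180 FPKM and the receptor PTCH1 at 1.43 ± 0.184 FPKM. The ligands SHH and IHH had 1, 1 and 3 counts and 0 counts.

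Chemokines steer white blood cells. Of 34 of them, 6 were expressed, and each of the 6 was a CXC chemokine of the group that draws neutrophils. CXCL1 stood at 73.1, 75.7 and 74.7 FPKM (74.5 ± 1.32), CXCL8 (interleukin 8) at 34.3, 38.4 and 35.5 FPKM (36.1 ± 2.12), CXCL2 at 16.7, 19.8 and 18.6 FPKM (18.4 ± 1.599) and CXCL5 at 16.1, 20.4 and 17.3 FPKM (17.9 ± 2.203). Replicate 2 was the highest for each of these. CXCL3 and CXCL6 were low, at 3.52 ± 0.586 FPKM and 1.75 ± 0.440 FPKM, and CXCL1, CXCL2 and CXCL3 are close paralogs that can share reads. The lymphocyte chemokines CXCL9, CXCL11 and CXCL13 were, like CXCL12, CXCL17 and PPBP, at or under the floor with 12 others, and no CC chemokine was expressed.

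Among 48 cytokines, 18 were expressed and 20 were at or under the floor. IL32 was at 16.1, 15.1 and 15.7 FPKM (15.7 ± 0.514), and CSF2, the granulocyte and macrophage factor GM-CSF, at 13.1, 18.2 and 12.4 FPKM (14.6 ± 3.18), replicate 2 being the highest. CSF1, TNFSF9, CLCF1 and LIF were at 12.9 ± 0.851 FPKM, 8.89 ± 0.324 FPKM, 7.98 ± 0.920 FPKM and 7.93 ± 1.04 FPKM. The cytokines of T cells, IL2, IL3, IL4 and IL5, and IL1RN and IL10 were at or under the floor. MIF had 3, 2 and 2 counts, but a longer same-strand gene covers it, so that its level is not known here. Of 50 peptide hormones, 10 were expressed and 30 were at or under the floor. The glycoprotein STC2 was at 35.4, 39.4 and 35.6 FPKM (36.8 ± 2.25), the vasodilator ADM at 19.5, 19.2 and 17.2 FPKM (18.6 ± 1.26), the neuropeptide GAL at 10.4, 6.32 and 9.96 FPKM (8.91 ± 2.25), ADM2 at 8.78 ± 1.19 FPKM, secretin (SCT) at 5.49 ± 1.26 FPKM and urocortin (UCN) at 2.88 ± 0.458 FPKM. Parathyroid hormone (PTH), POMC, GAST, CCK, VIP and SST had 0 counts.

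Collagens, laminins and the enzymes that cut them shape the matrix around a cell. Of 39 collagens, 15 were expressed: after COL6A2 (57.2 ± 6.29 FPKM) and COL1A1 came COL6A1, COL4A2, COL18A1 and COL13A1 at 23.95 ± 0.521 FPKM, 23.4 ± 0.393 FPKM, 17.04 ± 1.81 FPKM and 13.7 ± 0.952 FPKM. Of 31 other matrix genes, 21 were expressed, with TGFBI at 205, 185 and 198 FPKM (196 ± 10.1), the laminin chain LAMB3 at 82.8 ± 4.001 FPKM and the proteoglycan AGRN at 70.1 ± 12.3 FPKM, whereas VTN, POSTN and ELN were at or under the floor. Of 36 proteases and inhibitors, 21 were expressed. The inhibitor TIMP3 stood at 261, 247 and 262 FPKM (257 ± 8.22), the membrane protease MMP14 at 83.4 ± 5.199 FPKM, PLAU at 59.9 ± 2.53 FPKM, TIMP2 at 49.2 ± 3.87 FPKM and cathepsin B (CTSB) at 47.4 ± 0.584 FPKM. The secreted proteases MMP7, MMP8, MMP10, MMP12, MMP13 and MMP28 were at or under the floor.

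At the surface, 15 of 26 integrins were expressed, with ITGB1, the beta chain shared by most matrix receptors, at 158, 186 and 172 FPKM (172 ± 13.8), and ITGA3, ITGA6, ITGB5, ITGAV and ITGA5 at 58.4 ± 4.59 FPKM, 45.5 ± 1.01 FPKM, 25.6 ± 1.92 FPKM, 24.7 ± 0.473 FPKM and 19.1 ± 1.201 FPKM. Of 29 antigens used as drug targets, 18 were expressed. The ectonucleotidase NT5E (CD73) stood at 68.5, 72 and 72.4 FPKM (70.99 ± 2.14), the hyaluronan receptor CD44 at 56.1, 53.7 and 57.9 FPKM (55.9 ± 2.08), L1CAM at 29.7 ± 1.86 FPKM and CD70, the ligand of CD27, at 20.2, 19 and 20.5 FPKM (19.9 ± 0.817). CEACAM6, MUC16, NECTIN4, CLDN6 and VTCN1 were at or under the floor, with 3 others. Antigen presentation was of class I: 16 of 23 genes were expressed, with HLA-E at 107 ± 2.299 FPKM, B2M at 105 ± 7.32 FPKM and HLA-B at 49 ± 2.48 FPKM, while the class II genes HLA-DRA, HLA-DRB1 and HLA-DQA1 and the class I gene HLA-G were at or under the floor. HLA genes vary between people, and reads that differ from the reference may go uncounted.

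ETS factors share a DNA-binding domain that reads a GGAA core. Of 28, 16 were expressed (57.1%, against 52.1% of all protein-coding genes), 5 were at trace and 7 were at or under the floor. ELK3, which with SRF controls early response genes, led with 39.5, 36.6 and 38.8 FPKM (38.3 ± 1.54). ELF4 was at 37.8, 34.99 and 37.6 FPKM (36.8 ± 1.59) and ETS1, the founding member, at 34.3, 37.3 and 35.3 FPKM (35.6 ± 1.53), and the SDs of these 3 factors were larger than the gaps between neighbours. ETV4 and ETV5, of the PEA3 group, stood at 20.7 ± 0.425 FPKM and 10.2 ± 0.376 FPKM, the repressor ERF at 20.3 ± 2.03 FPKM, ETS2 at 16.3 ± 0.436 FPKM and ELF1 at 11.9 ± 0.779 FPKM. Lower were GABPA (8.03 ± 0.228 FPKM), ELK4 (6.95 ± 0.427 FPKM), ETV3 (6.01 ± 0.159 FPKM), ELK1 (5.96 ± 0.332 FPKM), ETV6 (5.704 ± 0.629 FPKM), FLI1 (5.61 ± 0.210 FPKM), ETV1 (4.01 ± 0.132 FPKM) and ELF2 (3.75 ± 0.438 FPKM).

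The ETS factors at trace were ELF3, an epithelial member just under the line with 0.875, 0.920 and 0.888 FPKM (0.895 ± 0.0230), ERG (5, 3 and 6 counts), ETV2 (5, 10 and 18 counts), ETV7 (10, 11 and 8 counts) and SPDEF (1, 9 and 5 counts). FEV, ETV3L, ELF5, EHF, SPI1, SPIB and SPIC were at or under the floor, of which SPIB is covered by a longer same-strand gene. Of the ETS members named as targets of YK-4-279 in other cancers, FLI1 and ETV1 were thus expressed and ERG was at trace. The study names FLI1 as part of the EWS-FLI1 protein, and ETV1 in prostate cancers with an ETV1 fusion. It also names SPIB and SPI1 as targets of a derivative of the drug in lymphoma, and both were at or under the floor here. The 6 partners of ETS proteins were expressed: DDX5 at 59.4 ± 3.97 FPKM, DHX9, which is RNA helicase A, at 39.5, 43.97 and 42.1 FPKM (41.8 ± 2.24), EP300 and CREBBP at 11.3 ± 0.212 FPKM and 7.41 ± 0.920 FPKM, and GABPB1 and GABPB2 at 4.24 ± 0.562 FPKM and 1.27 ± 0.128 FPKM.

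Promoters of expressed genes held ETS letters more often than those of genes at trace or at or under the floor. CCGGAAGT, on either strand, was found in 9.63% of 8357 promoters of expressed genes, 3.55% of 2902 at trace and 0.798% of 3636 at or under the floor, against 6.29% of all 14895. The shorter CCGGAA, which the longer motif contains, was found in 31.9%, 16.6% and 7.87%, against 23.1% of all. Within the expressed genes the share did not climb steadily with level: it was 7.99%, 11.1%, 9.29% and 10.2% from the lowest to the highest of 4 classes of level. Base composition differed in the same order, with a median GC content of 65.7% for expressed, 62.3% for trace and 53.3% for floor genes, and 27, 19 and 5 CG dinucleotides. The GC box GGGCGG ran the same way as the ETS letters, at 72.9%, 57.0% and 31.2%, against 59.6% of all. TATAAA ran the other way, at 4.85%, 10.1% and 19.7%, against 9.50% of all. So did the AP-1 letters TGACTCA, at 2.76%, 3.89% and 5.34%, against 3.61% of all. CCAAT was alike at 36.9%, 34.6% and 36.9%, against 36.4% of all. The part of base composition in the ETS share was not tested.

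The windows of 3 highly expressed ribosomal protein genes with CCGGAAGT in the 250 bases before the start are shown as examples of the motif, which is in capitals. Windows that hold over 30 bases of a protein-coding exon were passed over in choosing them. The windows are chr17:39200033-39200282 (plus strand), chr9:19380237-19380486 (minus strand) and chr11:119018344-119018593 (minus strand), with the genes at 551, 408 and 328 FPKM on average. RPL19 carries the motif as its reverse complement at the far edge of the window. The RefSeq start used for RPS25 lies 348 bases from the 5′ end of the gene as deposited, against 0 for RPL19 and 18 for RPS6. The RPS25 window therefore does not directly adjoin that end.
RPL19: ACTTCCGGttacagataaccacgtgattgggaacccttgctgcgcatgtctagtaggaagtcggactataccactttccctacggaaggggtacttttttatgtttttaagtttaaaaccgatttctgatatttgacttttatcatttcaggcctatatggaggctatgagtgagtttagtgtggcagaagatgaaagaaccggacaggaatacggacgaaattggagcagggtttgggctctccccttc
RPS6: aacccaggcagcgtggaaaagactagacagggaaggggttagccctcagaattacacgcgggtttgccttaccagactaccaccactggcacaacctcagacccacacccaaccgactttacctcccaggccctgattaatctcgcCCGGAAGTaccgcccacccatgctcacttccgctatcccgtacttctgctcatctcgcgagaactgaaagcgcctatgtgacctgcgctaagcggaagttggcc
RPS25: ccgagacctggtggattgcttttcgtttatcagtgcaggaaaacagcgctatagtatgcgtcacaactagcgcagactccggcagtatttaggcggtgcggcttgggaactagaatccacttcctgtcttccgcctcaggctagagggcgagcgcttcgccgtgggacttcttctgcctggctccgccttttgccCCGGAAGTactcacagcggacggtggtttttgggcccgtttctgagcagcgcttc

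The HOX genes record the position of a tissue along the body axis. They were expressed in 20 of 39 cases (51.3%), against 52.1% of all protein-coding genes, but unevenly over the 4 clusters. HOXB had 8 of 10 expressed, HOXB2 to HOXB9 without a gap, HOXC 5 of 9, HOXD 4 of 9 and HOXA 3 of 11. HOXD10 stood at 15.98, 15.7 and 14.9 FPKM (15.5 ± 0.573), HOXB9 at 15.2, 16 and 14.5 FPKM (15.2 ± 0.735) and HOXD9 at 12.9, 9.52 and 11.4 FPKM (11.3 ± 1.71). HOXB7, HOXD11 and HOXB3 followed at 9.31 ± 0.948 FPKM, 6.897 ± 0.721 FPKM and 4.89 ± 0.0106 FPKM. In the HOXD cluster the expressed genes were the adjoining HOXD8, HOXD9, HOXD10 and HOXD11, with HOXD12 at or under the floor and HOXD13 at 14, 5 and 19 counts. HOXA7, HOXB1, HOXB13, HOXC12, HOXC13 and HOXD1 were at or under the floor too, as was HOXD3, which a longer same-strand gene covers. Of the 39, 11 expressed genes and 6 at trace, HOXB9 among the former, are covered by another gene of their strand, so these levels can be too low. HOX clusters also hold antisense genes, and whether strand was used in counting is not given in the sources used here.

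**Figure D4:**
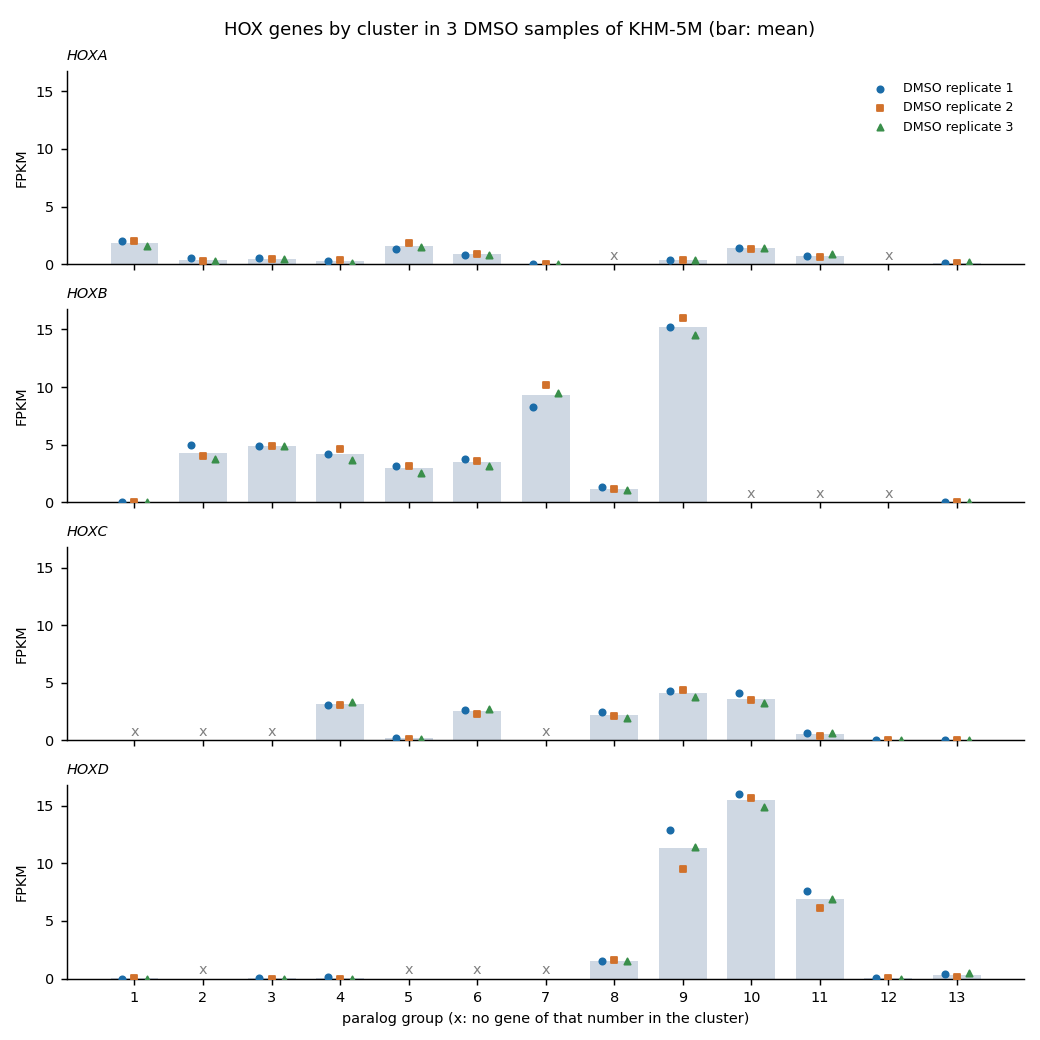
FPKM of the 39 HOX genes by cluster (panels) and paralog group (x axis), with a bar from 0 to the mean and 1 point per DMSO sample. HOXB2 to HOXB9 and HOXD8 to HOXD11 form unbroken runs, and the HOXA genes stay low.

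Of 48 nuclear receptors, 23 were expressed (47.9%, against 52.1% of all protein-coding genes) and 11 were at or under the floor. ESRRA, an orphan receptor of energy metabolism, stood at 27.8, 27.8 and 27.8 FPKM (27.8 ± 0.0189), NR2F6 at 30.8, 20.3 and 29.3 FPKM (26.8 ± 5.72), the oxysterol receptor NR1H2 at 21.8 ± 1.32 FPKM, the shared partner RXRB at 21.2 ± 0.503 FPKM, NR2F2 at 19.99 ± 3.04 FPKM and NR1D2, of the circadian clock, at 17.1 ± 1.71 FPKM. Replicate 2 was far lower than the others for NR2F6. RORB, NR1H4, NR1I2, HNF4A, RXRG and NR2E1 were at or under the floor, NR1I2 being covered by a longer same-strand gene. Over the ETS, HOX and nuclear receptor lists together, the 10 highest were ELK3, ELF4, ETS1, ESRRA, NR2F6, NR1H2, RXRB, ETV4, ERF and NR2F2.

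The cell cycle genes were nearly all expressed. Of 22 proliferation markers, 22 were expressed, with a median of 51.5 FPKM, against 7.67 FPKM for all expressed protein-coding genes. TPX2, which builds the spindle, stood at 186, 199 and 195 FPKM (193 ± 6.28), the anaphase activator CDC20 at 191, 174 and 193 FPKM (186 ± 10.7), the replication clamp PCNA at 160.4 ± 4.92 FPKM, the ubiquitin carrier UBE2C at 148 ± 0.893 FPKM, TOP2A at 142 ± 11.98 FPKM and MYBL2 at 100.1 ± 4.69 FPKM. Of 16 cyclins and CDKs, 15 were expressed, with the mitotic CCNB1 at 151, 169 and 158 FPKM (159 ± 8.99), CDK1 at 67.3 ± 6.91 FPKM and CCNA2 at 66.04 ± 1.79 FPKM, and CCND2 at trace with 50, 58 and 48 counts. Of 13 E2F factors and pocket proteins, 13 were expressed, with TFDP1 at 56.4 ± 1.301 FPKM, E2F1 at 30.3 ± 4.51 FPKM, E2F4 at 26.4 ± 2.02 FPKM and RB1 at 14.4 ± 1.15 FPKM.

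The brakes of the cycle were present as transcripts as well, 8 of 8. CDKN1B (p27) stood at 44.2, 45.95 and 43.8 FPKM (44.7 ± 1.14), CDKN3 at 28.2 ± 2.196 FPKM, CDKN2C at 23.1 ± 1.41 FPKM, CDKN2D at 21.6 ± 1.56 FPKM and CDKN1C (p57) at 18.1 ± 2.53 FPKM. CDKN2A (chr9:21967753-21995301, minus strand), the locus of p16 and p14ARF that many cancer lines have lost, was at 15.7, 15.3 and 14.4 FPKM (15.1 ± 0.699), its neighbour CDKN2B at 7.31, 7.57 and 7.005 FPKM (7.296 ± 0.282), and CDKN1A (p21) at 7.95, 7.95 and 7.92 FPKM (7.94 ± 0.0206). The SDs of CDKN1A and CDKN2B were smaller than the distance of each from CDKN2A. An SD between samples does not measure the error of comparing different genes, so this does not settle their order.

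Of 15 genes around CDKN2A on the short arm of chromosome 9, 7 were expressed, 5 were at trace and 3 were at or under the floor. Besides CDKN2A and CDKN2B, KLHL9 was at 9.54 ± 0.407 FPKM, PLIN2 at 8.45 ± 0.413 FPKM, FOCAD at 4.99 ± 0.109 FPKM, MTAP, which salvages methionine, at 3.46 ± 0.174 FPKM and HACD4 at 2.63 ± 0.0191 FPKM. MTAP is covered by a longer same-strand gene, so its level can be too low. MLLT3 (151, 165 and 120 counts), CDKN2B-AS1 (63, 62 and 81 counts), DMRTA1 (51, 73 and 67 counts), MIR31HG (3, 8 and 3 counts) and IFNE (1, 5 and 3 counts) were at trace, and IFNB1, ELAVL2 and SH3GL2 at or under the floor.

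Of 50 thyroid cancer drivers and suppressors, 45 were expressed and 4, RET, NTRK3, ALK and TSHR, were at or under the floor. GNAS, the stimulatory G protein, was at 127, 95.7 and 128 FPKM (117 ± 18.5), BAP1 at 23.8 ± 1.96 FPKM and the rest from 1.82 FPKM up. A transcript level does not tell whether a gene is mutated. Of 14 telomere genes, 13 were expressed, with NOP10 and NHP2, of the telomerase particle, at 111 ± 5.298 FPKM and 62.9 ± 8.02 FPKM, and DKC1 at 24.3 ± 0.912 FPKM. TERC, the RNA of telomerase, had 0 counts, but it lacks a poly(A) tail and the libraries were made from poly(A) RNA.

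Of 22 p53 target genes, 18 were expressed, with CCNG1 at 75.5 ± 5.17 FPKM, GADD45A at 48.5 ± 1.05 FPKM and BAX at 29.2 ± 0.653 FPKM. Of 17 BCL2 family genes, 12 were expressed: the protectors MCL1 and BCL2L1 stood at 66.5, 69.1 and 68.4 FPKM (68.01 ± 1.34) and 30.4, 27.8 and 30.3 FPKM (29.5 ± 1.497), and the death factors PMAIP1, BAX, BAD and BOK at 33.8 ± 2.46 FPKM, 29.2 ± 0.653 FPKM, 25.4 ± 1.32 FPKM and 24.7 ± 3.998 FPKM, while BCL2L10 and HRK were at or under the floor and BCL2 itself was at trace with 185, 202 and 209 counts. Of 12 ABC transporters, 6 were expressed. ABCC1, an exporter of drug conjugates, was at 13.1, 11.8 and 13.2 FPKM (12.7 ± 0.797), ABCC4, ABCC5, ABCC10, ABCC3 and ABCB4 were between 1.56 and 5.22 FPKM on average, and ABCB1, the P-glycoprotein of drug resistance, was at trace with 6, 11 and 8 counts.

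Glycolysis was expressed in 22 of 28 genes, with ENO1 at 645 ± 24.4 FPKM, TPI1 at 349 ± 22.2 FPKM, PKM at 319.8 ± 8.53 FPKM, PGAM1 at 259 ± 6.36 FPKM and LDHA at 174 ± 3.15 FPKM. ALDOA, covered by a longer same-strand gene, was at 2.49 ± 0.925 FPKM, a value that can be too low. The liver and blood forms SLC2A2, HK3 and PKLR were at or under the floor. Of 19 S100 genes, calcium-binding proteins, 8 were expressed, led by S100A6 at 328, 333 and 316 FPKM (326 ± 8.95), then S100A11 (323 ± 15.2 FPKM), S100A10 (181 ± 4.57 FPKM), S100A16 (116 ± 4.78 FPKM) and S100A2 (65.1 ± 1.38 FPKM). S100A7, S100A8, S100A9, S100A12 and S100B had 0 counts in every sample, and S100P had 2, 3 and 0 counts.

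Cancer-testis antigens, which are silent in most adult tissues outside the testis, were at or under the floor in 24 of 33 listed genes and expressed in 3, all on the X chromosome. MAGEC2 (chrX:142202345-142205290, minus strand) stood at 32.9, 33.2 and 34.4 FPKM (33.5 ± 0.788), MAGEA10 at 21.6, 22.99 and 22.04 FPKM (22.2 ± 0.699) and MAGEA3 at 20.5, 16.7 and 19.96 FPKM (19.1 ± 2.08). MAGEA6 was at trace with 0.682, 0.829 and 0.440 FPKM (0.650 ± 0.196). MAGEA3 and MAGEA6 are near-identical copies that can share reads, so the values of both are uncertain. MAGEA2, MAGEA8, MAGEA11, MAGEB1, MAGEB2 and MAGEC1 were at or under the floor. The promoters of MAGEA3 (chrX:152698544-152698793, plus strand) and MAGEA6 (chrX:152769690-152769939, minus strand) are shown because 250 of the 250 bases are the same in both. Each holds 1 match of CCGGAA, in capitals, 113 bases before the start. Since the copies can share reads, the deposited values do not establish that the levels of these genes differ.
MAGEA3 and MAGEA6: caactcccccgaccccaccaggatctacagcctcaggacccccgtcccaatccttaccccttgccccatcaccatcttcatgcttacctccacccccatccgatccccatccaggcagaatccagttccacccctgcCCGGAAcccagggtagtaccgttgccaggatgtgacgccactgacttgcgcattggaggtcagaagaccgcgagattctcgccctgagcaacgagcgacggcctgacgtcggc

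**Figure D5:**
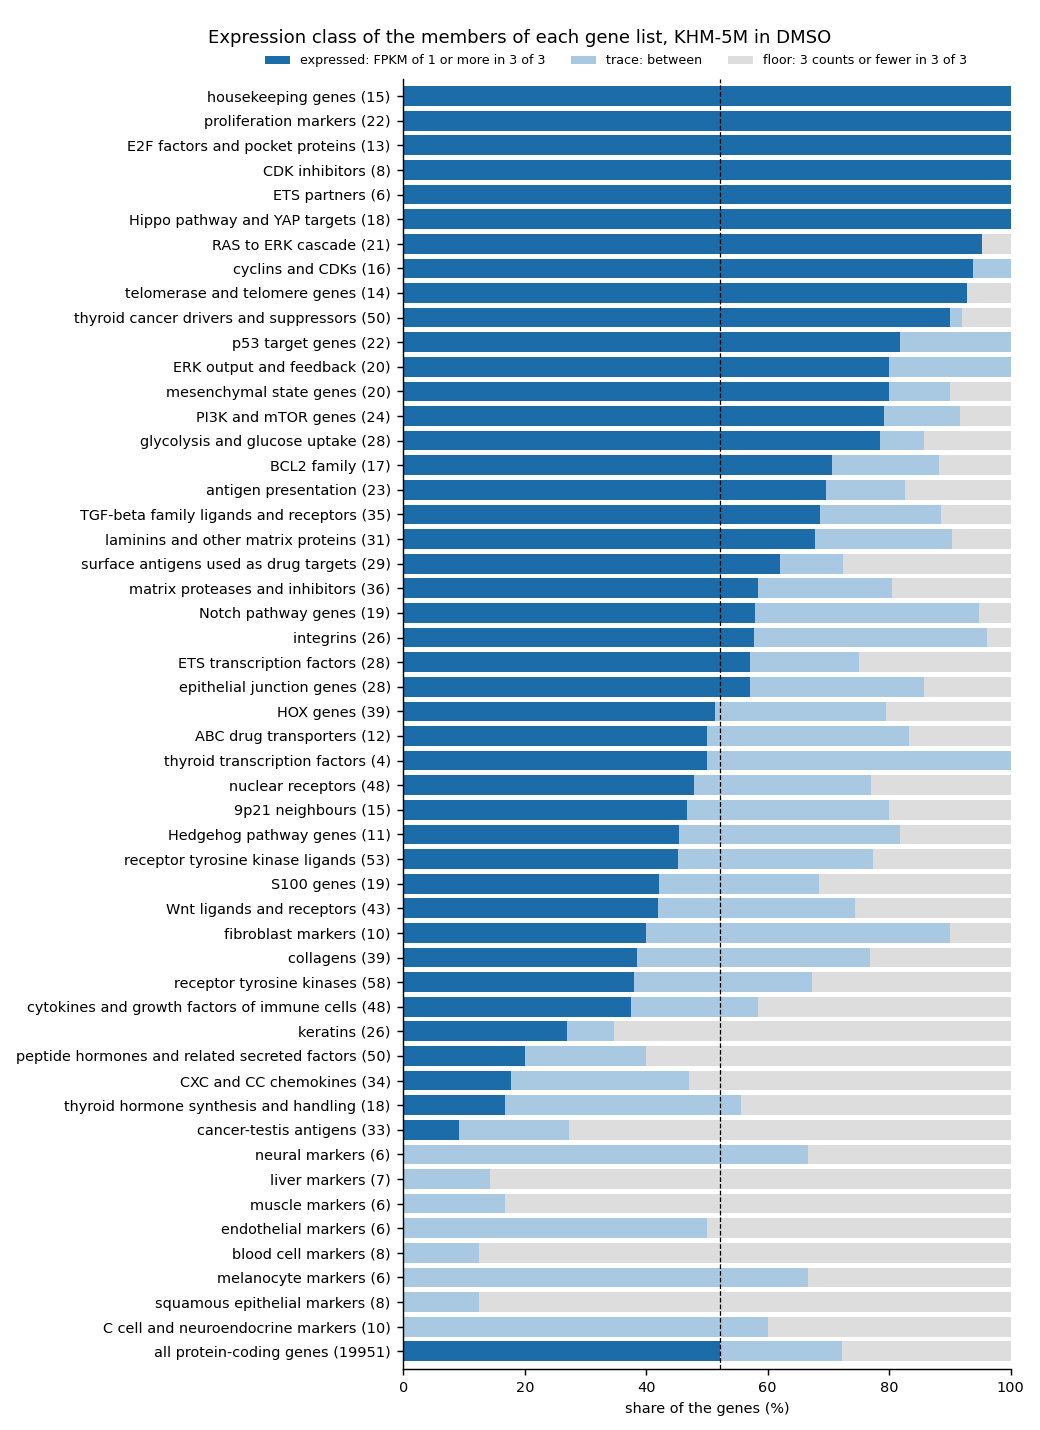
Share (%) of the members of each of the 51 gene lists that were expressed, at trace or at or under the floor in the 3 DMSO samples, with the number of genes in parentheses and all 19951 protein-coding genes at the bottom. The dashed line marks the 52.1% expressed among all protein-coding genes. Cell cycle and Hippo genes and the RAS to ERK cascade lie at or near 100%, and the markers of other cell types at 0% apart from the fibroblast list, where 4 of 10 were expressed.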

How the data were processed

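RNA-seq of poly(A) RNA from KHM-5M was read from 1 table of 58735 genes. The authors aligned reads with HISAT2 2.0.5 and counted them with featureCounts 1.5.0-p3, and their processing notes also name DESeq2 1.20.0, although the study's methods name another counter, 2 library kits that the labels do not, and 2 biological replicates per condition where the labels give 3 samples. Raw read counts per gene were deposited for each sample, and FPKM were deposited beside them; in each DMSO sample the FPKM equalled the count divided by gene length and by 1 constant, 1.01 to 1.02 times the column total. The build is GRCh38 by the deposited coordinates. The aligner and counter settings, including strand, are not given in the sources used here. The table's columns of fold changes and p-values for the authors' own comparisons were not used.

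Samples were grouped by the treatment label, and the 3 DMSO columns were used. Genes were classed by FPKM (at least 1 in 3 of 3) and counts (at most 3 in 3 of 3). Gene lists came from general knowledge, and 1 of their symbols was not found. The members and lists were chosen with earlier results of these data known. The text names up to 6 members with the highest mean and up to 6 at or under the floor in each list, all members of the thyroid, CDK inhibitor, chromosome 9 and ETS lists, the 10 highest genes outside the mitochondrial genome and both genes of each pair expressed together. Other genes named, such as CDH1, EPCAM, CRB3 for its E-boxes, EGR1, ABCB1, COL1A2, MAGEA6, BCL2, RB1 and the TWIST, ZEB and SNAI factors, were chosen after their values were seen. A gene was noted as covered where another gene of its strand spans at least 50% of it, which held for 18 of the 276 list members at or under the floor, 17 of 247 at trace and 36 of 595 expressed. Spans were taken whole, introns included. Overlap with genes of the other strand was not checked. If strand was not used in counting, levels without a mark can be off as well. Spread was described with edgeR 4.0.16 (TMM, minimum count 10) in R 4.3.3, tested on simulated data, and the rest in Python 3.11.15. GC content came from the longest GENCODE transcript of a gene. Alternatives were TPM, TMM library sizes, 0.5 and 5 FPKM, count and CPM limits, and leaving out each replicate. No interval is printed, and the floor covers counting error only. Some genes of the lists, and promoters on chromosome 8, are not reported here.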

Additional observations from a re-analysis of the deposited data

How the results depend on the processing

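The number of expressed protein-coding genes was 10402 and fell to 6497 at a limit of 5 FPKM, where the pairs with both genes expressed fell from 20 to 10. Under TPM, TMM library sizes, 0.5 FPKM, a minimum of 10 counts and CPM the first ranged from 10400 to 12046 and the second from 20 to 29. Leaving out 1 sample at a time gave 10456 to 10496 expressed genes, 5733 to 5756 at or under the floor (5528 with all 3) and 20 to 21 pairs. The coefficient of variation ranged from 4.84% (without replicate 2) to 10.4% (without replicate 3), the cause of which was not tested. The share of expressed promoters with CCGGAAGT was 10.2% at 5 FPKM. Of 51 lists, 17 changed their expressed count by over 1.5 times at 5 FPKM, 4 under CPM, 3 under TPM and 1 at 0.5 FPKM. Among markers of other cell types, 2 melanocyte genes and 1 endothelial gene reached 1 TPM in every sample, and 2 melanocyte, 2 endothelial and 2 neural genes reached 1 CPM. The thyroid hormone list had 3 genes expressed, against 6 under CPM and 1 at 5 FPKM. Genes near 1 FPKM, such as ELF3, can change class with the scale. No paired analysis was possible because no groups were compared.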

Other observations

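The deposited table assigns 1553 genes to families of transcription factors, of which 773 (49.8%) were expressed, 432 were at trace and 348 were at or under the floor. Among those with most members expressed, 20 of 22 MYB, 14 of 15 ARID, 10 of 11 E2F and 35 of 44 ZBTB genes were expressed. Other families were sparse, with 53 of 193 homeobox genes, 2 of 16 POU genes, 4 of 17 T-box genes and 17 of 47 forkhead genes expressed. The zinc fingers of the C2H2 kind, the largest family, had 299 of 630 expressed. HMGA1, an architectural protein that binds AT-rich DNA, stood highest with 883, 775 and 844 FPKM (834 ± 54.7), and YBX1, a cold-shock domain protein, was next with 737, 727 and 748 FPKM (737 ± 10.8). HMGB2, FOSL1, CNBP and ATF4 followed at 227 ± 25.4 FPKM, 193 ± 17.8 FPKM, 179.7 ± 6.41 FPKM and 167 ± 2.64 FPKM. FOXD1, a forkhead factor of embryonic stroma, was at 55.2, 27.1 and 50.3 FPKM (44.2 ± 14.99), with replicate 2 the lowest.

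Genes that do not code for protein were mostly under 1 FPKM. Of 5583 antisense genes, 312 (5.59%) were expressed, of 7629 lincRNA genes 267 (3.50%) and of 10191 processed pseudogenes 361 (3.54%). Pseudogenes and antisense genes can take reads from the genes they resemble or overlap. Protein-coding genes on the X chromosome were expressed in 326 of 845 cases (38.6%), and the autosomes ranged from 41.1% on chromosome 21 to 57.1% on chromosome 5.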
